A study of Mus musculus with 6 samples.

Results

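The hyalectanase clade of the ADAMTS proteases was followed in limb bones of newborn mice through its 7 genes, Adamts1, Adamts4, Adamts5, Adamts8, Adamts9, Adamts15 and Adamts20, which were picked by name from the 43346 genes of the deposited count table. All 7 passed the filter on low counts, as did 20210 genes in all. ADAMTS proteases are secreted zinc metalloproteinases that carry thrombospondin repeats, and this clade cuts the hyalectans, the large proteoglycans aggrecan, versican, brevican and neurocan that hang on hyaluronan chains in the extracellular matrix. ADAMTS4 and ADAMTS5 are best known as the aggrecanases of cartilage, and ADAMTS1, ADAMTS5, ADAMTS9, ADAMTS15 and ADAMTS20 as enzymes that clear versican when connective tissue, vessels, muscle and skin are remodelled. Each is made with a propeptide that furin-type convertases remove, is held near cells by matrix and surface proteins, and several are blocked by TIMP3 or taken up through the receptor LRP1.

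The study compared 3 wild type libraries with 3 libraries labelled Hdac3 CKO (called knockout here), all from C57BL/6 pups aged 1 day. Hdac3 encodes a histone deacetylase that works in corepressor complexes. The series' design text ties the knockout to PRX1, the name of a limb mesenchyme enhancer often used to drive Cre; cells outside that lineage, such as blood and muscle fibres, would then keep the gene. RNA came from bones of both limb pairs after soft tissue had been removed. No label says whether a library is 1 animal or a pool, so p-values cover only library-to-library spread, part of which may be technical.

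Total counts ran from 43389262 to 50927978 per library. Hdac3 stood at 47.4 to 50.3 CPM (counts scaled to library size with TMM factors) in wild type and at 28.3 to 31.8 CPM in knockout, 61.3% of the wild type mean, and fell by 0.71 ± 0.12 on the log2 scale. Osteoblast markers were abundant in all libraries, with a summed level of 26571 to 36643 CPM in wild type and 42323 to 61422 CPM in knockout. Most of that sum was Col1a1, at 23530 to 31116 CPM in wild type and 36001 to 55680 CPM in knockout, which did not pass the test. Of the 8 markers 1 rose, with 6 log2 fold changes above 0 and 2 below 0. Skeletal muscle markers also summed to 29881 to 49638 CPM over the 6 libraries. The replicates numbered 3 stood apart in cartilage: 9 cartilage markers summed to 8171 CPM in wild type replicate 3 and 15158 CPM in knockout replicate 3, against 1674 to 2252 CPM in the other 4 libraries. Macrophage markers were higher in knockout (5 of 7 rose; summed level 261 to 278 CPM in wild type and 481 to 558 CPM in knockout; 0 to 4 rose with 1 library left out), and connective tissue fibroblast markers were lower (2 of 7 fell, and 1 to 2 with 1 library left out; summed levels of 1524 to 2179 CPM and 1276 to 1595 CPM, which overlapped). Neutrophil markers showed the lowest list median, -2.49: 4 of 7 fell, 0 to 3 did with 1 library left out, and the summed level was 83.4 to 249 CPM in wild type and 17.4 to 26.9 CPM in knockout. Here rose and fell mean an adjusted p under 0.05 in edgeR's quasi-likelihood test, as for 0.703% and 0.475% of all genes tested. In bulk RNA, fewer cells of a type and less RNA per cell cannot be told apart.

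The catalytic centre that makes these proteins proteases is a feature that all 7 genes share. It was looked for in these 7 genes only, so it is not shown to set them apart from other ADAMTS genes. The coding stretch around it is shown for each gene so that the bases around the fixed motif can be compared. Each stretch is 60 bases of the gene's longest GENCODE M21 coding sequence among those that hold the zinc-binding histidine motif. The motif occurred once in each chosen sequence. Stretches are read 5′ to 3′ on the coding strand, with GRCm38 (mm10) coordinates. Capitals mark the codons of the 3 histidines that hold the zinc ion.
Adamts1, chr16:85799176-85799557, minus strand: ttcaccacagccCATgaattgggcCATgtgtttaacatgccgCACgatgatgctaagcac
Adamts4, chr1:171253198-171253930, plus strand: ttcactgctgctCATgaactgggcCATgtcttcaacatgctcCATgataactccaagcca
Adamts5, chr16:85878000-85887838, minus strand: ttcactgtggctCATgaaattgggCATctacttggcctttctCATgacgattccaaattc
Adamts8, chr9:30952709-30953393, plus strand: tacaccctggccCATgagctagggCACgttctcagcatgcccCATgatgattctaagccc
Adamts9, chr6:92905270-92908505, minus strand: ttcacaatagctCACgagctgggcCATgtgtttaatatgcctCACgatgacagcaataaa
Adamts15, chr9:30911240-30911702, minus strand: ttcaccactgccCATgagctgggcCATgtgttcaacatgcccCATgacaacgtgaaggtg
Adamts20, chr15:94353663-94355308, minus strand: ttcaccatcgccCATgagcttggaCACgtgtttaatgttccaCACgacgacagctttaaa

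Of the 60 positions, 23 were identical in all 7 genes. Identity between pairs ran from 55.0% to 78.3%. Part of this likeness was fixed in advance, because the search required the motif's 3 histidines, a glutamate and an aspartate in every gene. Adamts9 and Adamts20 shared 47 of 60 bases, and so did Adamts4 and Adamts15, the pair whose RNA levels moved in opposite directions. An intron interrupts every stretch, which is why the coordinates span more than 60 bases. It falls after base 22 in Adamts1, Adamts4, Adamts5, Adamts8 and Adamts15 and after base 29 in Adamts9 and Adamts20. The same 2 genes encode the long members, of 1931 and 1906 residues, while the other 5 encode 845 to 968 residues.

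Per gene length, Adamts1 was the most abundant transcript of the clade in every library. RPKM, reads scaled to gene length and to library size by the authors, is used for these levels because it allows genes of different length to be compared. The wild type mean was 22.5 ± 5.29 RPKM (SD, n = 3) for Adamts1, 6.14 ± 0.839 RPKM for Adamts9, 4.69 ± 0.816 RPKM for Adamts4, 4.30 ± 0.666 RPKM for Adamts15, 4.12 ± 0.591 RPKM for Adamts5, 2.26 ± 0.164 RPKM for Adamts20 and 2.22 ± 0.174 RPKM for Adamts8. In wild type, Adamts4, Adamts15 and Adamts5 did not differ beyond their spread, nor did Adamts20 and Adamts8, while Adamts9 lay above Adamts4 within each of the 3 libraries although their ranges overlapped.

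The order in the knockout libraries began with Adamts1 at 20.3 ± 7.32 RPKM (SD, n = 3), followed by Adamts4 at 7.19 ± 0.688 RPKM, Adamts9 at 5.13 ± 0.316 RPKM and Adamts5 at 3.17 ± 0.852 RPKM. Adamts20 (2.43 ± 0.559 RPKM), Adamts8 (2.26 ± 0.402 RPKM) and Adamts15 (2.05 ± 0.305 RPKM) came last and overlapped each other, and Adamts5 overlapped all 3. Adamts4 thus changed places with Adamts9, and Adamts15 moved from the middle of the order to its end. The 7 genes together summed to 46.2 ± 5.63 RPKM in wild type and 42.5 ± 8.21 RPKM in knockout, with ranges that overlapped. Of that sum Adamts15 held 9.28 ± 0.321% (SD, n = 3) in wild type and 4.86 ± 0.240% in knockout. Adamts4 held 10.3 ± 2.17% and 17.5 ± 4.59%, with ranges that overlapped. RPKM levels ran lower in knockout across the series, with a median log2 fold change of -0.12 over all genes with log2(RPKM + 0.1). In TMM-normalised CPM the 7 genes summed to 337 to 446 in wild type and 323 to 436 in knockout.

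**Figure D1:**
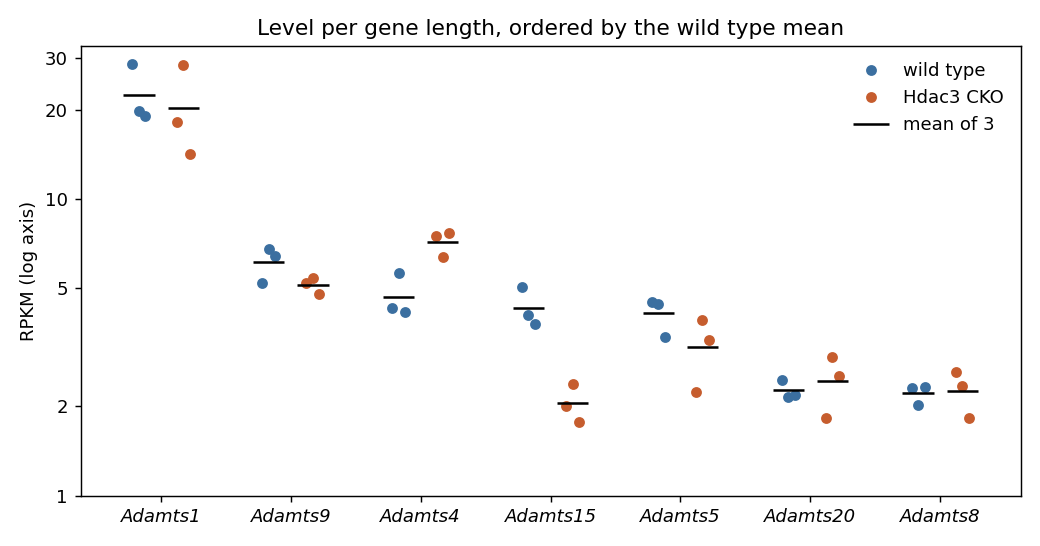
RPKM (vertical, log axis) of each gene (horizontal, ordered by the wild type mean) in the 3 wild type and 3 knockout (Hdac3 CKO) libraries; each point is a library and each bar the mean of 3. Adamts1 lies above every other member in every library, and Adamts15 lies lower in all knockout libraries than in any wild type library.

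In the comparison of knockout with wild type, Adamts4 rose, Adamts15 fell, and the other 5 members did not pass the test. Across all 20210 genes tested, 1.18% passed in either direction, 0.703% upward and 0.475% downward, with edgeR's quasi-likelihood test and Benjamini-Hochberg adjustment at 0.05. The 2 of 7 members that passed were also the 2 with separate ranges in the 2 genotypes, as 22.5% of all genes tested had. The median log2 fold change over the 7 was -0.05, and over all genes tested 0.00098.

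Adamts4 (chromosome 1, 171250421 to 171260637, plus strand), an aggrecanase that also cuts versican and brevican, read 27.4, 30.2 and 23.8 CPM in wild type (replicates 1, 2, 3) and 47.2, 40.4 and 49.4 CPM in the knockouts (1, 2, 3). Every knockout library lay above every wild type library. The means were 27.1 ± 3.19 CPM and 45.7 ± 4.66 CPM (SD, n = 3), a 1.68-fold rise.

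On the log2 scale the rise of Adamts4 was 0.75 ± 0.14 (SE; 95% interval 0.43 to 1.07), with an edgeR quasi-likelihood adjusted p of 0.041. Over the libraries, a two-sided exact permutation test of Adamts4 gave p = 0.1, which no split of 3 against 3 can go below. With wild type replicates 1, 2 and 3 left out in turn, the edgeR adjusted p of Adamts4 became 0.165, 0.114 and 0.148; with knockout replicates 1, 2 and 3 left out in turn it became 0.054, 0.047 and 0.133. Its log2 fold change then lay between 0.67 and 0.83, and it was 0.60 (edgeR adjusted p of 0.341) without both cartilage-rich libraries. The summed macrophage markers given above also did not overlap between the genotypes; their part in this rise was not tested.

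Neighbours of Adamts4 were named for their position. Fcer1g, an Fc receptor chain gene of myeloid cells 16.1 kb from Adamts4, rose by 0.80 ± 0.15 with an edgeR adjusted p of 0.039. B4galt3, 9.69 kb away on the opposite side, stood at -0.08 ± 0.14.

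Adamts15 (chromosome 9, 30899155 to 30922452, minus strand), a versican-cutting protease, read 39.7, 26.8 and 26.8 CPM in wild type, again in replicate order, and 15.5, 18.5 and 14.1 CPM in the knockouts. All 3 knockout libraries were below all 3 wild type libraries, and wild type replicate 1 was the highest. The means were 31.1 ± 7.45 CPM and 16.1 ± 2.26 CPM (SD, n = 3), so that knockout held 51.6% of the wild type level.

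The log2 fold change of Adamts15 was -0.95 ± 0.19 (SE; 95% interval -1.38 to -0.53), with an adjusted p of 0.0485 (edgeR quasi-likelihood) and p = 0.1 in the two-sided exact permutation test. Leaving out any library ended the call of Adamts15. The edgeR adjusted p became 0.169, 0.109 and 0.081 with wild type replicates 1, 2 and 3 left out in turn, and 0.093, 0.052 and 0.151 with knockout replicates 1, 2 and 3 left out in turn. The log2 fold change then ranged from -1.07 to -0.74, and without both cartilage-rich libraries it was -0.97 (edgeR adjusted p of 0.245). Among the fibroblast markers that were lower beside it, Dpp4 fell by 2.08 ± 0.23 and Pi16 by 1.25 ± 0.19 on the log2 scale, and the other 5 of 7 were between -0.50 and -0.21 and did not pass. Their part in the fall of Adamts15 was not tested. In a fit with the marker mean as a covariate Adamts15 stood at -0.32 ± 0.35. That mean includes Dpp4 and Pi16 and did not overlap between the genotypes, at 6.70 to 7.19 on the log2 CPM scale in wild type and 6.03 to 6.43 in knockout. The fit therefore cannot tell the markers from the genotype.

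**Figure D2:**
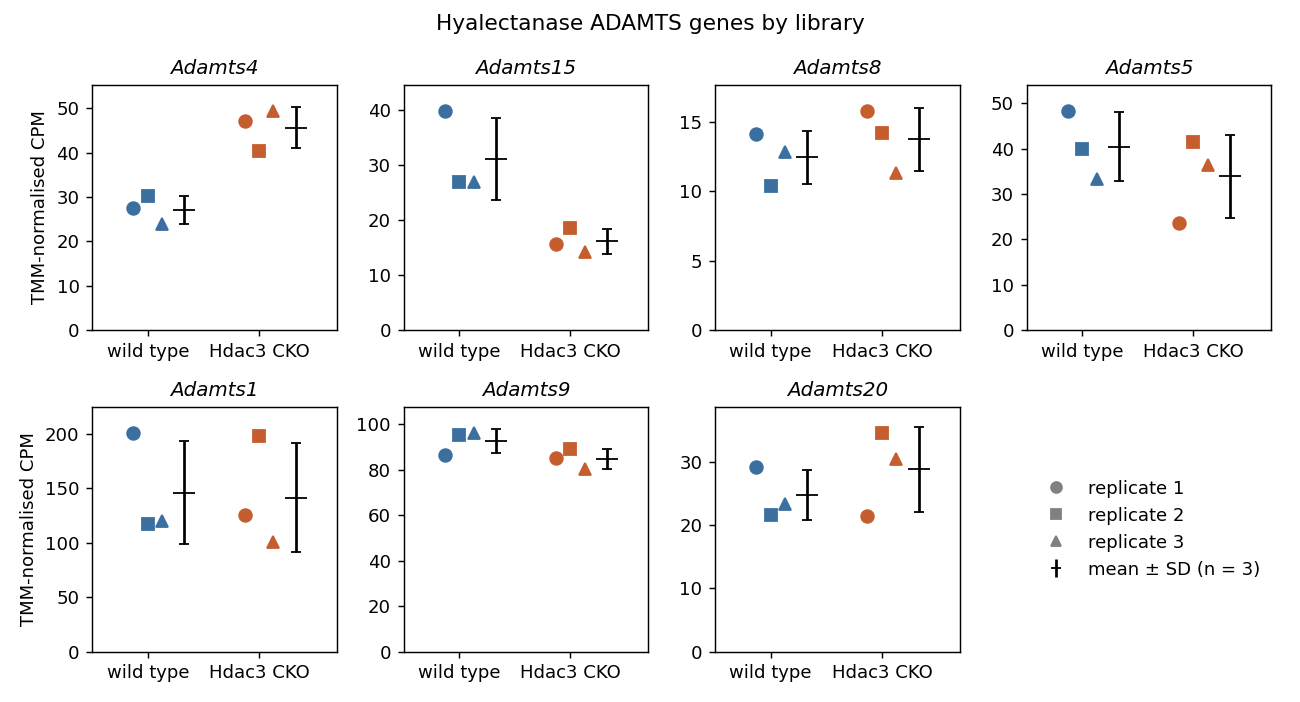
TMM-normalised CPM (vertical, each panel from 0) of each gene in the 3 wild type and 3 knockout (Hdac3 CKO) libraries (horizontal); symbols stand for the replicates and black marks for the mean ± SD. The genotypes separate for Adamts4, at 23.8 to 30.2 against 40.4 to 49.4 CPM, and for Adamts15, at 26.8 to 39.7 against 14.1 to 18.5 CPM, and overlap for the other 5 genes.

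Adamts8 and Adamts15 sit beside each other on chromosome 9, 20.1 kb apart and on opposite strands. Adamts8 (30942562 to 30963838, plus strand), a less studied hyalectan-cutting member, read 14.1, 10.4 and 12.8 CPM in wild type (replicates 1, 2, 3) and 15.8, 14.2 and 11.3 CPM in the knockouts (1, 2, 3). These values overlapped, with a log2 fold change of 0.14 ± 0.18 (95% interval -0.26 to 0.55) and an edgeR quasi-likelihood adjusted p of 0.74; when scaled by library totals it was -0.043.

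The log2 ratio of Adamts15 to Adamts8 was 1.49, 1.37 and 1.06 in the wild type libraries and -0.02, 0.39 and 0.32 in the knockouts, in replicate order. It dropped by 1.08 on average without overlap, with p = 0.1 in the two-sided exact permutation test, the smallest possible, or 0.2 adjusted over the 2 ratios of neighbouring members. The drop combines the changes of Adamts15 and Adamts8 in the same libraries and is not separate evidence. Zbtb44, next to Adamts8 on the other side, stood at -0.30 ± 0.18, and Snx19, next to Adamts15 at 432 kb, at 0.21 ± 0.14; neither passed the test. Exons of Adamts8 share 489 of 4613 bases with Gm29724, an antisense gene that is not analysed here.

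Adamts1 and Adamts5 form the other neighbouring pair, 53.1 kb apart on the minus strand of chromosome 16. Adamts1 (85793827 to 85803113), a versican-cutting protease known for its role in ovulation and vessel growth, read 201, 117 and 120 CPM in wild type (replicates 1, 2, 3) and 126, 198 and 101 CPM in the knockouts (1, 2, 3). Wild type replicate 1 and knockout replicate 2 were the high libraries, so Adamts1 varied by 1.99-fold over the 6 libraries with 1 high library in each genotype. Its log2 fold change was -0.05 ± 0.28 (95% interval -0.67 to 0.57), with an edgeR quasi-likelihood adjusted p of 0.95, and its sign turned when wild type replicate 1 (0.25), knockout replicate 1 (0.02) or knockout replicate 3 (0.15) was left out.

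Adamts5 (85858170 to 85901125), the main aggrecanase of mouse joint cartilage, read 48.2, 39.8 and 33.2 CPM in wild type (replicates 1, 2, 3) and 23.6, 41.5 and 36.4 CPM in the knockouts (1, 2, 3). Knockout replicate 1 was the lowest library, and the genotypes overlapped. The log2 fold change was -0.26 ± 0.22 (95% interval -0.74 to 0.23), with an edgeR quasi-likelihood adjusted p of 0.60. The log2 ratio of Adamts5 to Adamts1 overlapped between the genotypes, at -2.06 to -1.56 in wild type and -2.41 to -1.47 in knockout, with p = 0.6 in the two-sided exact permutation test.

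The long members Adamts9 and Adamts20 carry a terminal GON domain that the others lack. Adamts9 (chromosome 6, 92772699 to 92943492, minus strand), needed for versican turnover in the embryonic heart, was the least variable of the 7, at 86.4 to 96.1 CPM in wild type and 80.4 to 89.0 CPM in knockout, a 1.20-fold range over all 6 libraries. Its log2 fold change was -0.13 ± 0.12 (95% interval -0.39 to 0.14), with an edgeR quasi-likelihood adjusted p of 0.64. Opposite-strand exons of A730049H05Rik and Gm15737 share 1381 and 424 of its 15048 exon bases in GENCODE M21. The deposited length of Adamts9 was 12527 bases, so the shared part of the exons that were counted is not known.

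Adamts20 (chromosome 15, 94270163 to 94465418, minus strand), the gene of the belted coat colour mutation, read 29.3, 21.6 and 23.4 CPM in wild type (replicates 1, 2, 3) and 21.5, 34.6 and 30.5 CPM in the knockouts (1, 2, 3). Knockout replicate 1 was the lowest and replicate 2 the highest of the 6. The log2 fold change was 0.22 ± 0.19 (95% interval -0.21 to 0.65), with an edgeR quasi-likelihood adjusted p of 0.62.

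**Figure D3:**
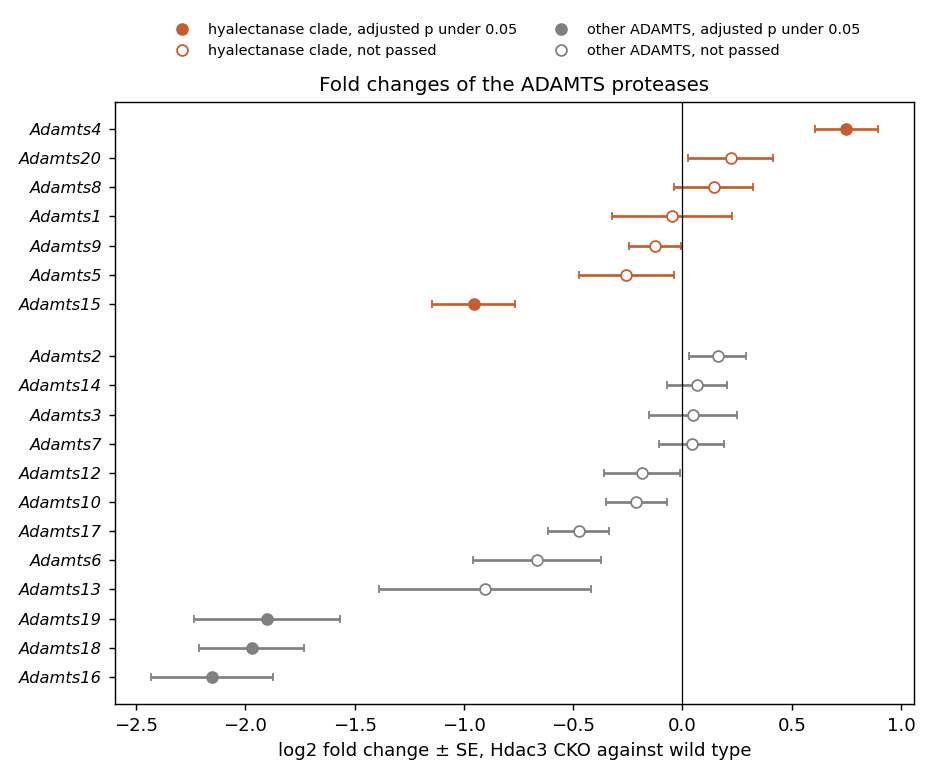
Log2 fold change ± SE (horizontal) of the 7 hyalectanase genes and the 12 other ADAMTS proteases (vertical), with filled points for an adjusted p under 0.05. Adamts4 at 0.75 and Adamts15 at -0.95 are the filled members of the clade, and Adamts16, Adamts18 and Adamts19 those of the other proteases.

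Of the 12 ADAMTS proteases outside the clade, 0 rose, 3 fell and 9 did not pass, with a median of -0.34. Those that fell were the orphan proteases Adamts16 (-2.15 ± 0.28), Adamts18 (-1.97 ± 0.24) and Adamts19 (-1.90 ± 0.34). Of these, 1 still fell with knockout replicate 3 left out, and 2 with wild type replicate 1, wild type replicate 2 or knockout replicate 1 left out. The difference between these genes and the hyalectanases was not tested.

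Among the substrates and their link proteins, 1 of 7 tested genes rose, 0 fell and 6 did not pass, with a median of 0.87; Hapln2, the eighth listed gene, was too low to test. The gene that rose was Hapln4, which encodes a link protein of brain hyaluronan matrix. It stood at 1.84 to 3.34 CPM in wild type and 5.14 to 8.62 CPM in knockout. Its log2 fold change was 1.50 ± 0.28 with an edgeR quasi-likelihood adjusted p of 0.037. It passed without wild type replicate 3 but not without any other single library. Nor did it pass with library totals, limma-voom, limma on RPKM, or the cartilage, muscle or fibroblast marker mean as a covariate. Acan and Vcan were singled out for their role after values were seen. Acan, the aggrecan gene, read 242, 189 and 422 CPM in wild type (replicates 1, 2, 3) and 308, 194 and 1111 CPM in the knockouts (1, 2, 3).

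The 2 high Acan libraries were the cartilage-rich ones numbered 3, and the log2 fold change of Acan was 0.92 ± 0.72, or -0.18 without knockout replicate 3. Vcan, the versican gene, stood at 333 to 604 CPM in wild type and 259 to 509 CPM in knockout, a log2 fold change of -0.30 ± 0.27. Neither passed the test. In Vcan, as in Adamts5, wild type replicate 1 was the highest library and knockout replicate 1 the lowest.

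Of 5 genes for propeptide processing and activation, 1 fell, 0 rose and 4 did not pass, with a median of 0.13. Pcsk6, which encodes the convertase PACE4, stood at 91.3 to 125 CPM in wild type and 55.2 to 62.9 CPM in knockout, and fell by 0.83 ± 0.15 on the log2 scale with an edgeR quasi-likelihood adjusted p of 0.030. It passed without knockout replicate 1 but not without any other single library. Nor did it pass with limma on log2(RPKM + 1) or with the cartilage, muscle or fibroblast marker mean as a covariate.

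Of 7 inhibitor and clearance genes 3 rose, 0 fell and 4 did not pass, with a median of 0.38 (1 rose when scaled by library totals). Lrp1, the endocytic receptor that takes up ADAMTS4 and ADAMTS5, read 608, 464 and 482 CPM in wild type (replicates 1, 2, 3) and 1083, 1037 and 1081 CPM in the knockouts (1, 2, 3), a log2 fold change of 1.04 ± 0.15 with an edgeR quasi-likelihood adjusted p of 0.018. All knockout libraries lay above all wild type libraries. Timp1 rose by 1.24 ± 0.21 and Timp2 by 0.75 ± 0.14. Macrophages also express Lrp1; the part of the macrophage markers given above in these rises was not tested.

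Timp3, singled out for its role as the tissue inhibitor of ADAMTS4 and ADAMTS5, stood at 187 to 254 CPM in wild type and 242 to 328 CPM in knockout and did not pass, at 0.38 ± 0.16. Leaving out wild type replicates 1, 2 and 3 in turn left 0, 0 and 1 inhibitor or clearance genes that rose, and leaving out knockout replicates 1, 2 and 3 in turn left 2, 1 and 1.

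Of 4 cofactors and docking proteins 1 rose, 0 fell and 3 did not pass, with a median of 0.37. Fn1, which encodes fibronectin, a matrix protein that binds ADAMTS4, stood at 1312 to 1361 CPM in wild type and 2630 to 3205 CPM in knockout, a log2 fold change of 1.13 ± 0.15 with an edgeR quasi-likelihood adjusted p of 0.015. It passed without knockout replicate 1 or 2 but not without any other single library.

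Of 8 genes of hyaluronan synthesis and turnover, 0 rose and 0 fell in edgeR's quasi-likelihood test, 2 had an unadjusted p under 0.05, and the median was 0.14. Over all genes tested, 15% had an unadjusted p under 0.05 in that test. The 2 with the smallest p were Cd44, the hyaluronan receptor, at 0.61 ± 0.21, and Has2, the main hyaluronan synthase of limb mesenchyme, at -0.72 ± 0.28.

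**Figure D4:**
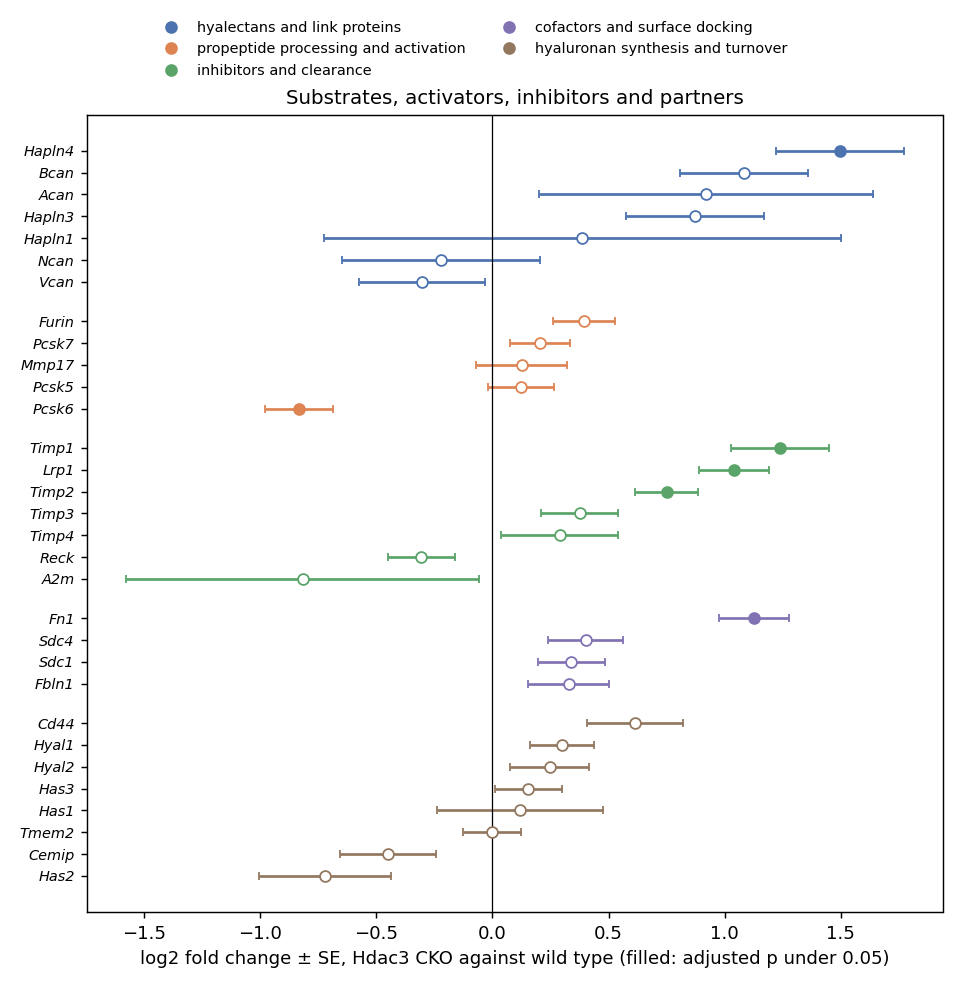
Log2 fold change ± SE (horizontal) of the tested genes for substrates, activation, inhibition and clearance, cofactors and hyaluronan turnover (vertical, coloured by group), with filled points for an adjusted p under 0.05. The filled points above 0 are Hapln4, Timp1, Lrp1, Timp2 and Fn1, and the filled point below 0 is Pcsk6.

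Likeness of pattern was measured over the 6 libraries as the root-mean-square difference between log2 CPM profiles centred on each gene's mean, against 143 genes of the fixed lists. The nearest to Adamts4 were Trp63, an epidermal transcription factor, and Timp2, both at 0.14. Nearest to Adamts15 were Adamtsl1 (0.243), which encodes a secreted protein with ADAMTS ancillary domains and no protease, and the fibroblast marker Pi16 (0.245). Adamts5 lay nearest to Hif1a (0.11) and Vcan (0.12), Adamts8 to Adamtsl5 (0.10) and Sdc1 (0.12), and Adamts9 to Tmem2 (0.093) and Nfkb1 (0.12). The SD of Adamts9 itself was 0.0986 on this scale. Both of its distances were about as large as that spread, so they show no shared pattern.

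Adamts20 lay nearest to Timp3 (0.13) and Ttn (0.16). The nearest to Adamts1, Pcsk5 and Has1, lay at 0.28 and 0.30. The distance to Pcsk5 exceeded the SD of Pcsk5 itself (0.154), so it shows no shared pattern. Within the clade the smallest distance was between Adamts8 and Adamts9 (0.24) and the largest between Adamts4 and Adamts15 (0.89). The smallest exceeded the SD of Adamts8 (0.225) and of Adamts9 (0.0986) over the libraries. It marks genes that varied little and does not show that they varied together. The chromosome 16 neighbours Adamts1 and Adamts5 lay at 0.34 and the chromosome 9 neighbours Adamts8 and Adamts15 at 0.57. These distances were about as large as the SD of Adamts5 (0.353) and of Adamts15 (0.567), so neither shows a shared pattern.

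**Figure D5:**
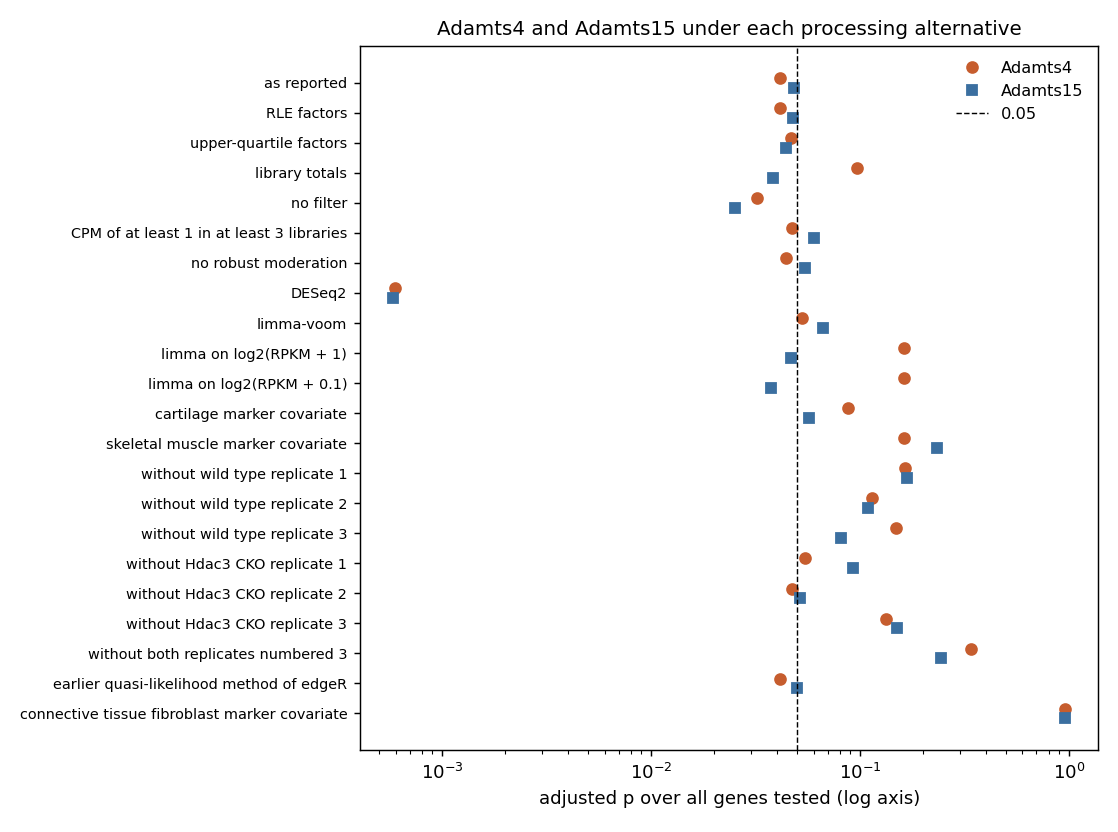
Adjusted p (horizontal, log axis) of Adamts4 and Adamts15 in the comparison as reported and under each of 21 processing alternatives (vertical), with the dashed line at 0.05. Both genes lie close to the line as reported, at 0.041 and 0.0485, and each lies beyond it under 13 of the 21 alternatives.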

How the data were processed

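Per the file headers, the deposited tables hold unnormalised counts (first table) and RPKM (second table) for each gene and library. Tools listed by the submitters' processing notes are TopHat2 2.1.0, featureCounts, Subread and bcl2fastq 1.8.4, with build mm10; no source used here gives the strand setting or annotation release. The deposited RPKM values use the table's gene length and a library total larger than the summed gene counts. No TMM scaling was applied to them here. Columns were matched to libraries by their titles, genotypes came from the labels, and replicates were numbered in record order.

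Counts were filtered with edgeR's default, scaled by TMM and tested with edgeR 4.0.16 (R 4.3.3; quasi-likelihood fit of that version with bias-adjusted deviances, robust moderation, no covariate), which was tested on simulated data. P-values were adjusted over all genes. Levels between genes used the deposited RPKM. Gene lists covered substrates, activation, inhibition and clearance, cofactors, hyaluronan, other ADAMTS, ADAMTS-like proteins, regulators and cell type markers. Of each pathway list the genes that passed, or else the 2 with the smallest p, were named. Members and lists were chosen with earlier results of these data known. Alternatives included DESeq2 1.42.0 and limma 3.58.1. Sequences and exon overlaps came from GENCODE M21 (GRCm38). A result on an overlapping gene is not reported here.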

Additional observations from a re-analysis of the deposited data

How the results depend on the processing

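The 2 calls in the clade sit near the threshold and rest on 3 libraries per genotype, with at least 485 counts per member and library. Over 21 alternatives Adamts4 stayed above 0 (0.53 to 0.83) and Adamts15 below 0 (-1.13 to -0.32), and 8 alternatives kept each call. The number of members that rose and that fell was 1 and 1 as reported. It was 0 and 1 with library totals, where the median of all genes shifted to -0.18 and Adamts4 stood at 0.56. It was also 0 and 1 with limma on log2(RPKM + 1) or log2(RPKM + 0.1), where that median shifted to -0.06 and -0.12. The number that rose and that fell was 1 and 0 with a minimum of 1 CPM in 3 libraries or no robust moderation. It was 0 and 0 with limma-voom, with the cartilage, muscle or fibroblast covariate, and without both replicates numbered 3. Leaving out 1 library gave 0 to 1 that rose and 0 that fell.

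All genes called numbered 238 (59.7% of them higher), 868 in DESeq2, 157 in limma-voom, 131 (36.6% higher) with log2(RPKM + 1), 143 with the cartilage covariate, 51 with the muscle covariate, 8 with the fibroblast covariate, 23 to 175 without 1 library and 0 in edgeR without both replicates numbered 3, where 2309 had an unadjusted p under 0.05. With library totals 178 were called, 32.6% of them higher, and with log2(RPKM + 0.1) 160, 36.9% of them higher.

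Signs turned for genes that did not pass. Adamts8 was -0.043 with library totals. With the muscle covariate Adamts1 was 0.16, Adamts5 0.082 and Vcan 0.037. With the fibroblast covariate Adamts1 was 0.99, Adamts5 0.78, Vcan 1.19, Has2 0.32, Adamtsl3 0.41 and Acan -0.43. Adamts1 was 0.022 without both replicates numbered 3 and -0.36 to 0.25 without 1 library, and Acan was -0.18 to 1.32 without 1 library. The cause was not tested. The fibroblast covariate and edgeR's earlier quasi-likelihood method (226 genes, Adamts4 0.042, Adamts15 0.0499, adjusted p) were chosen after seeing the data. No paired analysis was possible because the labels give no shared replicate numbers.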

Other observations

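Lists that bear on the clade from further away gave few calls. Of 6 ADAMTS-like proteins and papilin, which share ancillary domains with the ADAMTS proteases but have no protease domain, 0 rose and 0 fell in edgeR's quasi-likelihood test, 1 had an unadjusted p under 0.05, and the median log2 fold change was -0.07. The 2 with the smallest p were Adamtsl1 at -0.61 ± 0.17, which DESeq2 called with an adjusted p of 0.0495, and Adamtsl3 at -0.38 ± 0.17. Of 11 regulators reported to act on these genes, 0 rose and 0 fell in the same test, 3 had an unadjusted p under 0.05, and the median was 0.04. For both lists, the share of all genes tested with an unadjusted p under 0.05 was 15%. The 2 with the smallest p were the cytokine gene Il1a at -1.41 ± 0.50, with 0.224 to 0.376 CPM in wild type and 0.094 to 0.145 CPM in the knockouts, and the osteoblast transcription factor Runx2 at -0.44 ± 0.16.

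Markers of vessels, where several ADAMTS genes are also transcribed, gave 0 calls in edgeR's quasi-likelihood test: 0 of 8 endothelial genes, with a median of 0.17 and 1 unadjusted p under 0.05, and 0 of 7 smooth muscle and pericyte genes, with a median of 0.16 and 0 unadjusted p under 0.05. The other marker lists gave 0 of 9 for cartilage (median 0.33), 1 of 8 that rose for osteoblasts (Dmp1, median 0.45), 0 of 8 for skeletal muscle (0.36), 0 of 5 for adipocytes (0.29), 0 of 6 for epidermis (1.30) and 0 of 5 for Schwann cells (0.28). Erythroid genes fell in 2 of 6 cases (median -1.02), and in 0 to 1 with 1 library left out. An unadjusted p under 0.05 was found for 0 cartilage, 0 skeletal muscle, 1 adipocyte, 2 epidermis and 1 Schwann cell gene. Among all genes tested that share was 15%.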
